A study of Mus musculus with 6 samples.

Results

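Collagen is made in the endoplasmic reticulum (ER), where prolines and lysines of the new chains are hydroxylated, sugars are added to hydroxylysine, and chaperones hold the folded procollagen until it is exported. Outside the cell, proteinases remove the propeptides, the molecules assemble into fibrils, and lysyl oxidases start the crosslinks between them. Osteoblasts and osteocytes, the cells embedded in bone matrix, use this pathway mainly for type I collagen, and recessive loss of many of its genes causes brittle bone disease in humans. The transcripts of 36 genes of this pathway, chosen by name, were examined in mouse femur, in controls and after phlebotomy (removal of blood). All 36 were found among the 55421 mouse gene rows, and all 36 were among the 18838 genes that passed the filter on low counts.

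Both groups were labelled as wild-type (WT) C57BL/6 mice of 12 weeks, with 3 libraries each, and phlebotomy was the only labelled difference between them. The deposited counts of 1 library, phlebotomy 2, go against that label: it held 2288 counts on the row Neo (a selection marker), 920 on EGFP, 403 on DsRed and 75 on Venus (fluorescent reporters), where each of the other 5 libraries held 0 to 12 on any of these rows. Another row, named for a GNAS transgene, held 372 to 619 counts in all 6 libraries. The source of the counts on these rows was not tested. The sources used here give neither the volume of blood removed nor the time from phlebotomy to sampling. RNA came from bone fractions enriched for osteocytes, with no cell sorting stated, and the labels do not say that each library is a separate animal, so a p-value reflects only how these libraries vary, which may be technical. The libraries of each group carry the numbers 1, 2 and 4 of the deposited columns, and values per library are listed in that order.

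Libraries held 11219243 to 19015588 gene counts, at which 3 counts amount to 0.164 to 0.296 CPM (counts scaled to library size, with TMM). Osteocyte markers were present: all 12 of a list that includes Dmp1, Sost, Mepe and Phex were counted in every library, with summed levels of 24518 to 51893 CPM in controls and 15037 to 26789 CPM after phlebotomy. On the first principal component of all genes tested, which held 41.8% of the variance, phlebotomy 2 lay at -7.80, nearer to the controls (-51.4 to -16.6) and away from phlebotomy 1 (54.9) and phlebotomy 4 (40.2). Control 1 stood apart at the other end, at -51.4 against -19.3 and -16.6 in the other controls. Its blood cell markers were low: relative to the mean of all libraries, the mean log2 level of the erythroid list was -0.81 in control 1 against 0.07 and 0.35 in the other controls and 0.08 to 0.21 after phlebotomy, and that of the neutrophil list -0.73 against -0.03 and 0.40 and -0.09 to 0.31. Results are also given without phlebotomy 2, whose counts go against its label. That library is also the phlebotomy library nearest to the controls, so leaving it out enlarges differences by construction, and calls made without it are a description that supports nothing.

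Most of the pathway was at lower mean levels after phlebotomy, with the groups wholly apart for P4ha2, Crtap, Creb3l1, Lox and Loxl4 among others, while P4hb, Kdelr2, Colgalt1 and Plod1 were at nearly equal levels in both groups. The log2 fold change (phlebotomy minus control) was below 0 for 31 of 36 genes and above 0 for 5, with a median of -0.48, against a median of -0.0028 over all genes tested and -0.10 over the 9382 genes with a mean of at least 10 CPM. It was below 0 for 50.2% of all genes tested and for 61.6% of those 9382 genes. None of the 36 passed an adjusted p of 0.05 in edgeR's quasi-likelihood test, in which 0.00% of all genes were called lower and 0.0159% higher; the smallest adjusted p was 0.160, for Creb3l1. At an unadjusted p under 0.05 in edgeR, 17 of the 36 were lower and 0 higher, where 9.42% of all genes were lower and 7.01% higher. DESeq2 called 3 of the 36 lower at an adjusted p under 0.05, with a background of 1.12% of all genes, and 0 higher (background 0.398%). These backgrounds are shares of 18826 genes, of which 7666 got no adjusted p in DESeq2 and could not be called. The shares among genes that could be called are therefore larger. P4ha3, Colgalt2, Tll1, Pcolce2 and Adamts3 were also without an adjusted p in DESeq2.

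Abundant genes were lower more often than genes as a whole, and most of the 36 are abundant. Among genes of at least 10 CPM, 15.5% were lower at an unadjusted p under 0.05, and among the 29 collagen processing genes of that level 16 were. In 13 of the 36 genes every phlebotomy library lay below every control library, and in 1 every phlebotomy library lay above, where 11.2% and 10.1% of all genes did so. Among genes of at least 10 CPM, 17.1% lay wholly below, as did 12 of the 29.

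The osteocyte markers, an osteoblast list and the collagen chains were also lower in median. The marker counts below stand beside 9.42% of all genes lower and 7.01% higher, and 15.5% lower among genes of at least 10 CPM. At an unadjusted edgeR p under 0.05, 9 of 12 osteocyte markers were lower (median log2 fold change -0.67), 3 of 10 osteoblast markers (median -0.52, summed level 25214 to 40558 CPM in controls and 25158 to 31780 CPM after phlebotomy) and 4 of 5 tested chondrocyte markers (median -0.87, summed level 56.1 to 68.3 and 29.6 to 46.5 CPM, with Matn1 at 0 in a library). Of 7 tested fibroblast and periosteal markers 2 were lower and 0 higher (median 0.13, summed level 650 to 992 and 588 to 1806 CPM, with Clec3b at 0 in a library). Ctsk, which is among the 7 and also among the collagen turnover genes below, held most of that sum in every library. It was at 451, 623 and 785 CPM in the controls and at 1327, 406 and 1608 CPM after phlebotomy. Acp5, of the osteoclast list below, was also highest in phlebotomy 1 and 4. It was at 268, 348 and 601 CPM in the controls and at 744, 297 and 741 CPM after phlebotomy. The summed level of the fibroblast and periosteal list thus mostly reflects Ctsk. Which cells the Ctsk transcripts came from was not tested. Of the blood lineages, 3 of 7 tested B-lineage markers were lower (median -0.40, summed level 224 to 287 CPM in controls and 168 to 246 CPM after phlebotomy), and DESeq2 called 2 of them lower at an adjusted p under 0.05. By the same DESeq2 threshold 2 osteocyte, 1 osteoblast, 1 chondrocyte and 1 fibroblast and periosteal marker were lower, and 1 neutrophil marker was higher. Of all genes, DESeq2 called 1.12% lower and 0.398% higher. Higher at the unadjusted p were 2 of 7 monocyte and macrophage markers (median 0.36, 525 to 726 and 637 to 893 CPM), 2 of 10 neutrophil markers (median 0.28, 20112 to 47743 and 27209 to 43294 CPM), 2 of 10 erythroid markers (median 0.11, 12440 to 27428 and 18390 to 28078 CPM) and 2 of 4 tested skeletal muscle markers (median 0.50, 5.52 to 9.62 and 9.45 to 13.1 CPM, with Ckm, Myh1 and Pvalb at 0 in a library). Of 7 osteoclast markers 1 was lower and 0 higher (median 0.33, 652 to 1059.6 and 637 to 1189 CPM). Marrow stroma and adipocyte (1 of 7 lower), endothelial (0 of 8) and megakaryocyte (0 of 7) markers had medians of -0.20, -0.21 and -0.02. Fewer bone cells in a fraction and less RNA per cell cannot be told apart in bulk libraries, and the part of cell composition in the results below was not tested.

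**Figure D1:**
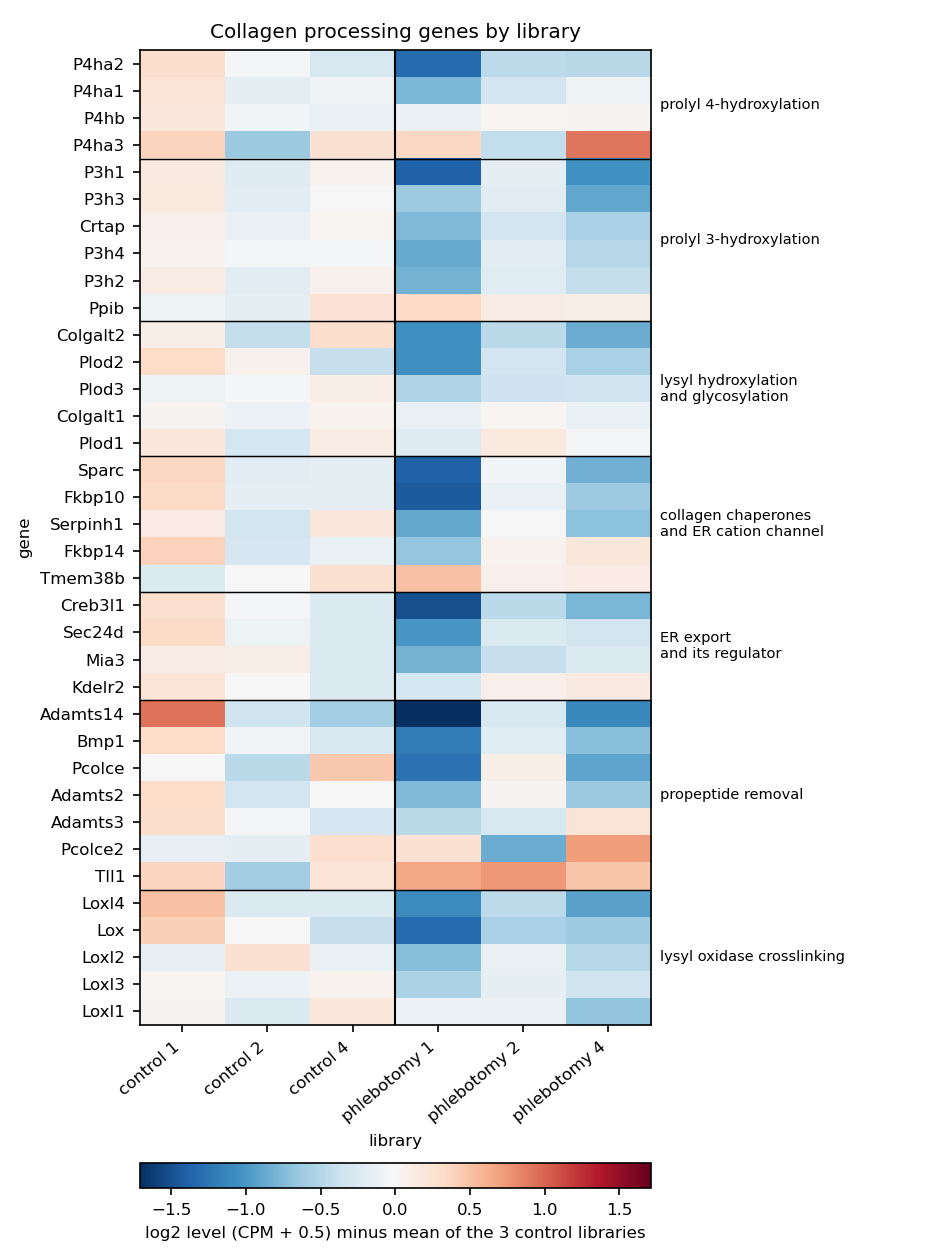
Level of each of the 36 genes (rows, grouped by role) in each of the 6 libraries (columns), as the log2 of CPM plus 0.5 minus the mean of the 3 control libraries; blue is lower and red higher. Phlebotomy 1 held the lowest of the 6 values for 27 genes and control 1 the highest for 23, and phlebotomy 2 lay within the range of the controls for 20. The matching shares of all genes tested were not computed.

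The 3 phlebotomy libraries were not alike. Phlebotomy 1 lay below every control for 28 of 36 genes and phlebotomy 4 for 25, but phlebotomy 2 for 15, and phlebotomy 2 lay within the range of the controls for 20. The shares of all genes tested that did so in each library were not computed. Phlebotomy 1 (54.9) and control 1 (-51.4) also lay at opposite ends of the first principal component of all genes tested. These counts therefore cannot be called particular to the 36 genes. Averaged over the 36 genes, the log2 level relative to each gene's mean over all libraries was 0.40, 0.04 and 0.17 in the controls and -0.48, 0.03 and -0.15 after phlebotomy. Control 1, the highest library for 23 of the genes, was thus also the library with the lowest erythroid and neutrophil markers, and the part of those cells in its values was not tested. Without control 1 the median log2 fold change was -0.43, and 9 of the 36 were lower at an unadjusted p, with a background of 5.73%. Without phlebotomy 2 the median was -0.69, and 11 genes were lower at an adjusted edgeR p under 0.05, with a background of 2.99%. Without phlebotomy 1, the library with the lowest levels, the median was -0.31, 0 genes passed the adjusted p and 5 of the 36 were lower at an unadjusted p, with a background of 4.14%. Those 5 were P4ha2, Crtap, Creb3l1, Lox and Loxl4, which were also the members lower at an unadjusted p under 0.05 in each of the 18 alternative analyses. The other 12 of the 17 lost that call in at least 1 alternative. The share of all genes that kept such a call in all 18 was not computed. In GRCm38, by GENCODE M21, P4ha2 lies at chr11:54100095-54131665, Crtap at chr9:114375134-114390675, Creb3l1 at chr2:91982328-92024502 and Loxl4 at chr19:42593982-42612813.

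**Figure D2:**
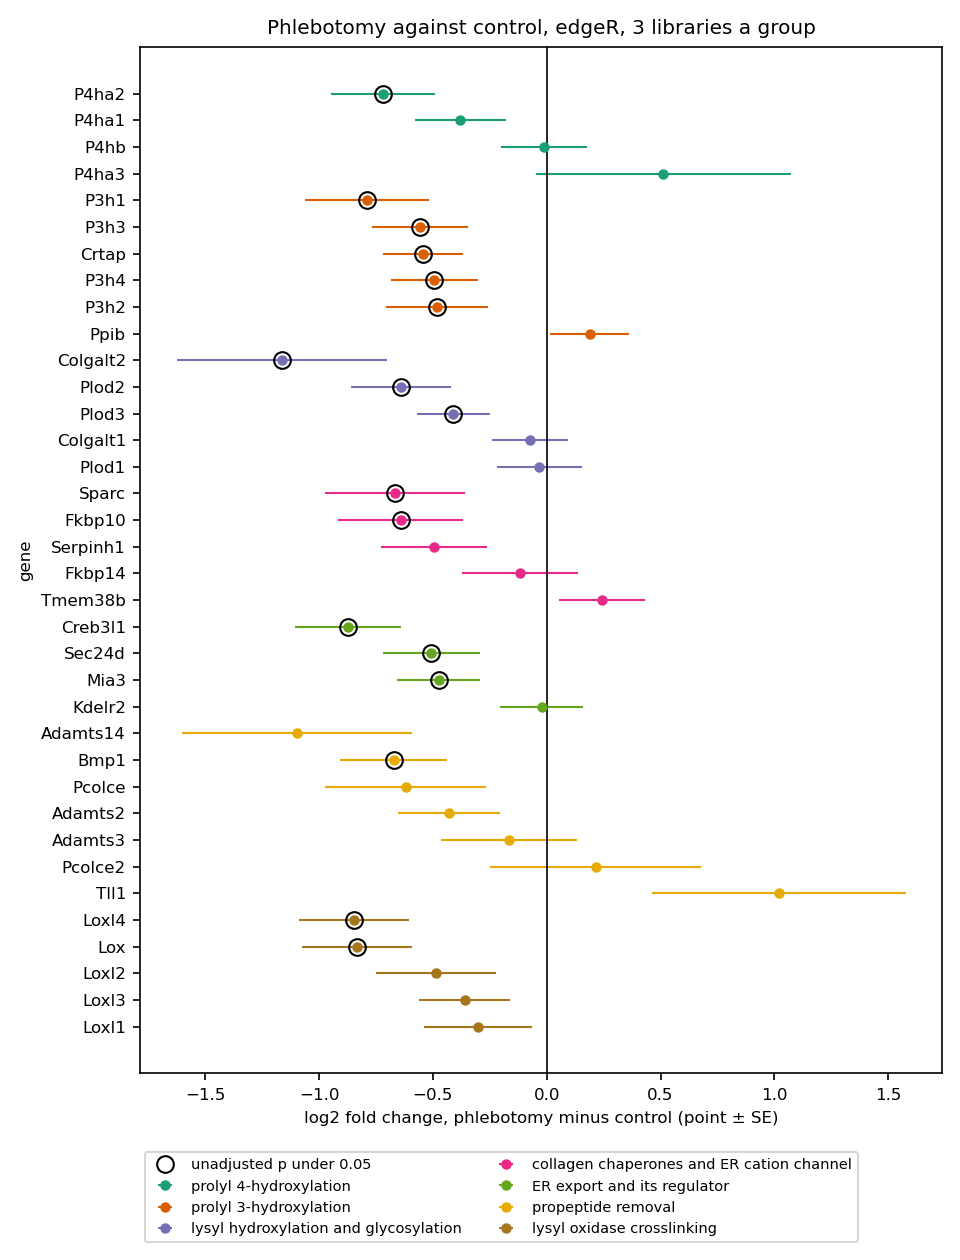
Log2 fold change of each gene, phlebotomy minus control, with its standard error (SE) from edgeR on 3 libraries a group, coloured by role; rings mark an unadjusted p under 0.05. All 17 ringed genes lie left of 0, the prolyl 3-hydroxylation group holds 5 of them, and none passed the adjusted threshold.

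Prolyl 4-hydroxylase is a tetramer of catalytic alpha subunits with the beta subunit P4hb, which is also protein disulfide isomerase; its hydroxyprolines keep the collagen helix stable at body temperature. P4ha2, the minor alpha subunit gene here, was measured at 106.8, 85.0 and 71.6 CPM in the controls and at 34.4, 63.5 and 62.0 CPM after phlebotomy. Every phlebotomy library was below every control, though phlebotomy 2 and control 4 lay close together. The log2 fold change was -0.72 (SE 0.23, edgeR adjusted p = 0.196, unadjusted p = 0.00701), and -0.46 without phlebotomy 1 (unadjusted p = 0.0318). P4ha1, the main alpha subunit gene, averaged 315 ± 46.0 CPM in controls and 242 ± 56.4 CPM after phlebotomy (SD, n = 3 libraries, as for all means below), and the groups overlapped (log2 fold change -0.38, edgeR adjusted p = 0.354).

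P4hb showed no such difference. It was at 1471, 1259 and 1186 CPM in the controls and at 1200, 1336 and 1348 CPM after phlebotomy, all within the range of the controls. Its log2 fold change was -0.01 (SE 0.19), and it turned to the plus side under several other scalings. P4hb serves many secreted proteins besides collagen. P4ha3 was near the limit of counting, with 7 to 33 counts in a library and 0.936 ± 0.484 CPM in controls against 1.29 ± 0.783 CPM after phlebotomy.

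A complex of P3h1, Crtap and cyclophilin B (Ppib) hydroxylates particular prolines at their 3-position and acts as a chaperone of the collagen chains. Crtap, the helper subunit, was at 53.4, 46.1 and 51.2 CPM in the controls and at 29.6, 39.7 and 33.9 CPM after phlebotomy. All 3 phlebotomy libraries were below all controls, and the controls were close together. Crtap had a log2 fold change of -0.54 (SE 0.17, edgeR adjusted p = 0.196).

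P3h1, the catalytic subunit, was at 33.1, 25.4 and 30.9 CPM in the controls and at 11.0, 26.5 and 14.2 CPM after phlebotomy. Phlebotomy 1 and 4 were well below the controls, while phlebotomy 2 lay among them. P3h1 had a log2 fold change of -0.79 (SE 0.27, edgeR adjusted p = 0.211), which was -1.28 without phlebotomy 2 and -0.52 without phlebotomy 1 (unadjusted p = 0.0789). Ppib, the isomerase of the complex, was not lower, at 47.0 ± 7.18 CPM in controls and 53.5 ± 4.75 CPM after phlebotomy (log2 fold change 0.19, SE 0.17). Exons of Snx22 on the other strand cover 25.0% of the exon length of Ppib, and reads of the pair cannot be told apart without strand.

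The remaining genes of this family were lower by similar amounts. P3h3, a related gene, was at 28.2, 22.0 and 25.1 CPM in the controls and at 16.1, 21.8 and 13.2 CPM after phlebotomy. P3h4, which has no catalytic activity of its own and takes part in complexes with lysyl hydroxylase 1, was at 46.5, 44.3 and 43.5 CPM in controls and at 24.4, 39.4 and 31.7 CPM after phlebotomy. P3h2 was at 13.9, 11.0 and 13.4 CPM in controls and at 7.07, 10.9 and 9.42 CPM after phlebotomy. In all 3 genes each phlebotomy library lay below each control, with phlebotomy 2 just under the lowest control in P3h3 and P3h2. The log2 fold changes were -0.56 (SE 0.21, edgeR adjusted p = 0.235) for P3h3, -0.49 (SE 0.19, adjusted p = 0.240) for P3h4 and -0.48 (SE 0.22, adjusted p = 0.303) for P3h2. The unadjusted calls of all 3 were lost with the GC and length trend removed, where the log2 fold changes were -0.24 (P3h3), -0.33 (P3h4) and -0.40 (P3h2), and without phlebotomy 1, where they were -0.49, -0.31 and -0.30. Exons of the antisense gene Gm4524 cover 28.4% of the exon length of P3h2.

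**Figure D3:**
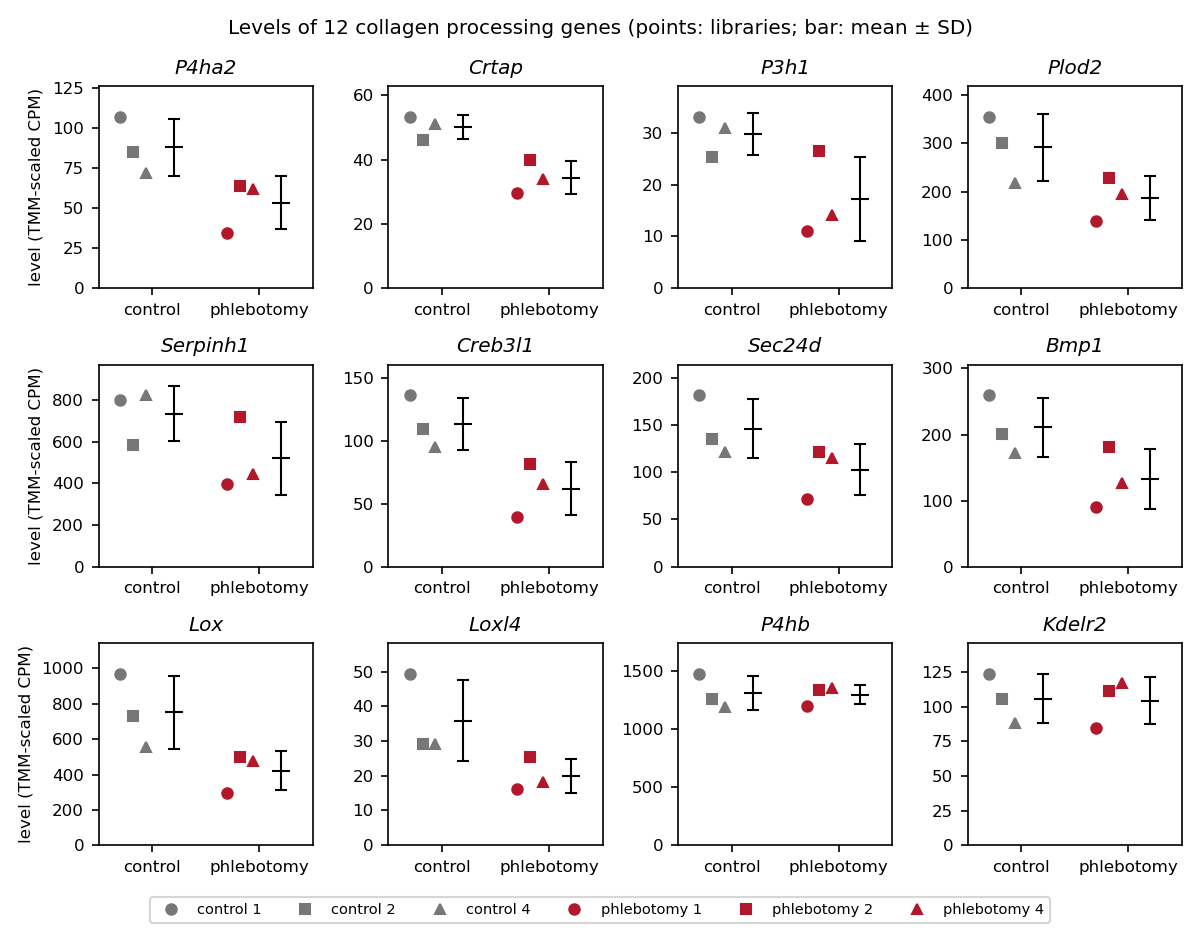
Level (TMM-scaled CPM, axes from 0) of 12 genes in each control (grey) and phlebotomy (red) library, with the mean and SD of each group beside the points. Phlebotomy libraries lie wholly below the controls for P4ha2, Crtap, Creb3l1, Lox and Loxl4, phlebotomy 2 reaches into the control range for P3h1 and Serpinh1, and the groups overlap widely for P4hb and Kdelr2.

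Lysyl hydroxylases make the hydroxylysines from which sugars are hung and stable crosslinks are formed. Plod2, which acts on the telopeptides at the ends of the molecule, was at 355, 301 and 218 CPM in the controls and at 138, 228 and 195 CPM after phlebotomy. Phlebotomy 2 reached above control 4, so the groups overlapped. Plod2 had a log2 fold change of -0.64 (SE 0.22, edgeR adjusted p = 0.206). Plod3, which also adds glucose to collagen, was at 56.4, 58.6 and 65.1 CPM in controls and at 41.6, 46.8 and 47.1 CPM after phlebotomy, wholly below the controls (log2 fold change -0.41, SE 0.16, edgeR adjusted p = 0.244). With a trend on GC content and length removed, its log2 fold change was -0.17 (unadjusted p = 0.309). Opposite-strand exons cover 11.7% of the exon length of Plod3 (Znhit1), 11.4% of Colgalt1 (Unc13a) and 11.6% of Loxl3 (Htra2).

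Plod1, which acts on lysines within the helix, was at 44.5 ± 7.79 CPM in controls and 43.4 ± 6.08 CPM after phlebotomy, with a log2 fold change of -0.03 (SE 0.19). Colgalt1, the main enzyme that adds galactose to hydroxylysine, averaged 37.5 ± 2.36 CPM in controls and 35.7 ± 2.44 CPM in the other group, a log2 fold change of -0.07 (SE 0.17). Neither gene differed beyond the spread between libraries, and both turned to the plus side under other scalings. Colgalt2, the rare relative of Colgalt1, was at 1.68, 1.04 and 2.02 CPM in the controls and at 0.479, 0.977 and 0.632 CPM after phlebotomy. That was wholly below the controls but rested on 8 to 30 counts a library (log2 fold change -1.16, SE 0.46, edgeR adjusted p = 0.244), and on the scale of log2(CPM + 1) the fold change was -0.63.

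Serpinh1 (HSP47), Fkbp10 (FKBP65) and Fkbp14 (FKBP22) are ER chaperones or isomerases of procollagen, Sparc (osteonectin) is a secreted collagen-binding protein abundant in bone, and Tmem38b (TRIC-B) is an ER potassium channel. Sparc had the highest level of the 36 genes, at 8238, 5632 and 5797 CPM in the controls and 2476, 6264 and 3644 CPM after phlebotomy. Phlebotomy 1 and 4 lay below the controls and phlebotomy 2 among them. The log2 fold change was -0.67 (SE 0.31, edgeR adjusted p = 0.299), which was -1.14 without phlebotomy 2, -0.38 without phlebotomy 1 (unadjusted p = 0.229) and -0.48 without control 1 (unadjusted p = 0.160).

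Fkbp10 was likewise lowest in phlebotomy 1 and highest, within its group, in phlebotomy 2. It was at 157, 112 and 112 CPM in the controls and at 46.2, 116 and 81.4 CPM after phlebotomy, so that phlebotomy 2 was above 2 of the controls (log2 fold change -0.64, SE 0.28, edgeR adjusted p = 0.279), and its log2 fold change was -0.33 without phlebotomy 1 (unadjusted p = 0.142) and -1.03 without phlebotomy 2. Serpinh1 was at 801, 582 and 823 CPM in controls and at 397, 721 and 446 CPM after phlebotomy, again with phlebotomy 2 inside the control range (log2 fold change -0.50, SE 0.23, edgeR adjusted p = 0.307). Its unadjusted p of 0.0509 fell just outside 0.05. Fkbp14, at 16.1 ± 4.29 and 14.8 ± 4.40 CPM, and Tmem38b, at 37.0 ± 6.50 and 43.8 ± 7.03 CPM, did not differ beyond the spread (edgeR adjusted p = 0.845 and 0.537).

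Creb3l1 (OASIS) is an ER membrane transcription factor that is cleaved and enters the nucleus to activate collagen and export genes in osteoblasts. It was at 135.8, 109.2 and 95.2 CPM in the controls and at 39.2, 81.3 and 65.2 CPM after phlebotomy. Every phlebotomy library lay below every control, phlebotomy 1 by the widest margin. The log2 fold change of -0.87 (SE 0.23, unadjusted p = 0.00215) was the one with the smallest p among the 36 genes, and its adjusted p was 0.160 in edgeR and 0.0357 in DESeq2. Over the 18 alternatives its log2 fold change ranged from -1.16 to -0.60.

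Procollagen is too long for ordinary transport vesicles, and Mia3 (TANGO1) and the coat protein Sec24d take part in packing it. Mia3 was at 109.1, 108.2 and 85.5 CPM in the controls and at 57.0, 76.5 and 84.3 CPM after phlebotomy, with phlebotomy 4 next to control 4. Sec24d was at 181, 135 and 121 CPM in controls and at 71.8, 121 and 115 CPM after phlebotomy, with phlebotomy 2 next to control 4. Neither pair of groups overlapped, but the gap between them was small beside the range within each group. The log2 fold changes were -0.47 (SE 0.18, edgeR adjusted p = 0.238) for Mia3 and -0.51 (SE 0.21, adjusted p = 0.265) for Sec24d. Without phlebotomy 1 they were -0.30 (unadjusted p = 0.0900) and -0.28 (unadjusted p = 0.159), and Sec24d was at -0.33 without control 1 (unadjusted p = 0.156). Kdelr2, a receptor that returns chaperones such as HSP47 from the Golgi to the ER, was at 123.7, 105.5 and 88.6 CPM in controls and at 84.9, 111.3 and 116.9 CPM after phlebotomy. The Kdelr2 values of the groups were intermixed (log2 fold change -0.02, SE 0.18, adjusted p = 0.965 in edgeR).

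Propeptides at the carboxyl end are removed by Bmp1 and the related Tll1, helped by the enhancers Pcolce and Pcolce2, and those at the amino end by Adamts2, Adamts3 and Adamts14. Bmp1 was at 259, 201 and 172 CPM in the controls and at 90.3, 180 and 126 CPM after phlebotomy. Phlebotomy 2 lay above control 4, so the groups overlapped (log2 fold change -0.67, SE 0.23, edgeR adjusted p = 0.213). Left-out libraries moved Bmp1 both ways: its log2 fold change was -1.0003 without phlebotomy 2, -0.43 without phlebotomy 1 (unadjusted p = 0.0750), -0.51 without control 1 (unadjusted p = 0.0587) and -0.43 with the GC and length trend removed (unadjusted p = 0.0868). Pcolce averaged 78.9 ± 24.9 CPM in controls and 51.3 ± 27.0 CPM after phlebotomy, and Adamts2 149 ± 32.8 and 110 ± 35.6 CPM, with overlapping groups and unadjusted p-values of 0.113 and 0.0767 in edgeR.

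Adamts14 varied most among the controls. It was at 33.1, 13.4 and 11.4 CPM in the controls and at 4.91, 14.2 and 7.77 CPM after phlebotomy, so its log2 fold change of -1.10 (SE 0.50, edgeR adjusted p = 0.332) leaned on control 1 and was -0.48 without it. The other genes of this step were rare. Adamts3 was at 4.28 ± 0.989 and 3.79 ± 1.12 CPM, and Pcolce2 at 1.59 ± 0.371 and 1.85 ± 1.13 CPM, both with overlapping groups. Tll1 was the only one of the 36 genes with every phlebotomy library above every control (0.542 ± 0.332 and 1.05 ± 0.147 CPM). It rested on 3 to 18 counts a library and had a log2 fold change of 1.02 (SE 0.56, edgeR adjusted p = 0.374).

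Lysyl oxidases oxidise lysines and hydroxylysines of the assembled fibril, from which crosslinks then form. Lox, the main family member in these libraries, was at 968, 729 and 558 CPM in the controls and at 293, 497 and 475 CPM after phlebotomy. Every phlebotomy library lay below every control, and control 1 was far above the other controls. Its log2 fold change of -0.83 (SE 0.24) had an adjusted p of 0.172 in edgeR and 0.0392 in DESeq2.

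Loxl4 was at 49.3, 29.2 and 29.1 CPM in the controls and at 16.1, 25.3 and 18.3 CPM after phlebotomy. The groups did not overlap, with phlebotomy 2 closest to the controls. Its log2 fold change was -0.85 (SE 0.24), with an adjusted p of 0.169 in edgeR and 0.0468 in DESeq2, and -0.56 without control 1 (unadjusted p = 0.0272). Loxl2 averaged 6.44 ± 1.14 CPM in controls and 4.63 ± 1.09 CPM after phlebotomy, Loxl3 14.0 ± 0.866 and 10.9 ± 1.49 CPM, and Loxl1 10.5 ± 1.66 and 8.51 ± 1.90 CPM. These 3 had log2 fold changes of -0.49, -0.36 and -0.30 and unadjusted edgeR p-values of 0.0862, 0.0937 and 0.225. In Loxl3 the phlebotomy libraries lay below the controls, and in Loxl1 and Loxl2 the groups overlapped.

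Levels per kilobase of exon allow the genes to be compared with each other. In controls Sparc led with 1731 CPM per kilobase, followed by P4hb (456), Serpinh1 (301), Lox (157) and P4ha1 (76.5). Kdelr2 (57.9) and Plod2 (54.1) came next, and Tll1 (0.0698), P4ha3 (0.298), Pcolce2 (0.343) and Colgalt2 (0.371) were the lowest. The genes with nearly equal levels in both groups thus include an abundant one, P4hb, as well as genes of middle level such as Plod1 at 6.57 and Colgalt1 at 8.67 CPM per kilobase.

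Within each enzyme family the same isoenzyme held most of the transcripts per kilobase in all 6 libraries, except among the prolyl 3-hydroxylases. P4ha1 made up 83.1% to 88.2% of the prolyl 4-hydroxylase alpha transcripts, Plod2 63.5% to 76.8% of the lysyl hydroxylases, Lox 86.6% to 91.7% of the lysyl oxidases, Colgalt1 95.0% to 98.6% of the galactosyltransferases and Adamts2 72.6% to 86.2% of the procollagen N-proteinases. The share of P3h1 among the prolyl 3-hydroxylases was 44.1%, 43.5% and 44.6% in the controls and 32.4%, 44.7% and 38.6% after phlebotomy, and in phlebotomy 1 P3h3 had the larger share, 46.2%. Plod1 held 8.59%, 7.08% and 11.5% of lysyl hydroxylase transcripts in controls and 13.7%, 12.2% and 12.0% after phlebotomy. Of the 19 shares computed, 3 did not overlap between groups: those of Plod1, of Colgalt1 (95.0% to 97.05% in controls, 97.5% to 98.6% after phlebotomy) and, as its complement, of Colgalt2. No background was computed for such shares. Among the levels of all genes tested, 11.2% lay wholly below the controls and 10.1% wholly above. The differences in shares were not tested further, since an exact permutation test of 3 against 3 libraries cannot go below p = 0.1.

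The unfolded protein response raises ER chaperones through elements in their promoters, among them the ER stress response element, in which CCAAT and CCACG are separated by any 9 bases. Promoter windows from 250 bases before to 50 after the start site (RefSeq, GRCm38.p6) were held for 23 of the 36 genes. On either strand, the element was in 0 of those 23, in 7 of 17 promoters of general ER folding genes and in 0.130% of all 27025 promoters. The shorter element TGACGTGG was found in Sec24d (first base 26 before the start) and Adamts3 (225 before), and in 0.607% of all promoters. Its core ACGTG, which TGACGTGG contains, was in 9 of the 23 and in 19.7% of all promoters. It was also in 8 of 17 promoters of general ER folding genes, 10 of 18 of ER to Golgi traffic genes and 3 of 15 of collagen chains.

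The GC box GGGCGG was in 18 of the 23 promoters against 35.9% of all, the CCAAT box, which the ER stress response element also contains, in 7 against 37.9%, and TATAAA in 3 against 14.2%. In the other lists the GC box was in 15 of 17 promoters of general ER folding genes, 12 of 18 of ER to Golgi traffic genes and 9 of 15 of collagen chains. The median GC content of the windows was 64.3% for the 23 genes and 52.7% for all promoters. The bone factor core ACCACA was in 4 of the 23 and in 16.9% of all promoters. A match is a description of letters and not a measured binding site. Promoter stretches are shown for the chaperone Serpinh1, for P4hb and P4ha1, the main subunit genes of prolyl 4-hydroxylase, and for Loxl4, one of the 5 genes lower at an unadjusted p under 0.05 in all 18 alternatives. The promoter of Hsp90b1 (the ER chaperone GRP94) is shown for contrast because it holds the stress element on both strands. Capitals mark ACGTG (or its reverse complement CACGT) and the GC box in either orientation in the first 4, and the stress element in Hsp90b1. Each is written 5′ to 3′ on the strand of its gene and stops before the nearest annotated exon.
Serpinh1, chr7:99353240-99353489, minus strand: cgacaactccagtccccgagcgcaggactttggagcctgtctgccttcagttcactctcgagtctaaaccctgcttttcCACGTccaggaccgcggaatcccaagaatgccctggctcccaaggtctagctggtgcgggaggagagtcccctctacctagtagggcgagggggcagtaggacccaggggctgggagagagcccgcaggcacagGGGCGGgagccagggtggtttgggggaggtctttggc
P4hb, chr11:120573254-120573503, minus strand: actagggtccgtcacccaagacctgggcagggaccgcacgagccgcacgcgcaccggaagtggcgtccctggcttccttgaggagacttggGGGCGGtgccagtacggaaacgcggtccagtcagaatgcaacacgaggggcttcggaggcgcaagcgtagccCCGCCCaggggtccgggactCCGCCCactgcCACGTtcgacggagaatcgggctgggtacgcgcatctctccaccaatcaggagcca
P4ha1, chr10:59323046-59323295, plus strand: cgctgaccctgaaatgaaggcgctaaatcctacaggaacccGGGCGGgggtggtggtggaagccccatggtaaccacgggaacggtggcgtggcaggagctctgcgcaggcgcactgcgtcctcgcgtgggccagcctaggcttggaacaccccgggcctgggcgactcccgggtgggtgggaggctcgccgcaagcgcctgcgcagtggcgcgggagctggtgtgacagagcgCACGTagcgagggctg
Loxl4, chr19:42612814-42613056, minus strand: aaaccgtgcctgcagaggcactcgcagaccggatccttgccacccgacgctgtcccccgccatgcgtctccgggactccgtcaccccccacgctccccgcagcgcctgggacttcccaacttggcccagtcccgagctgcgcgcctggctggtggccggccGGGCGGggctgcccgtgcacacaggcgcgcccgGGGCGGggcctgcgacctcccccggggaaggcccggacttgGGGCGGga
Hsp90b1, chr10:86705510-86705694, minus strand: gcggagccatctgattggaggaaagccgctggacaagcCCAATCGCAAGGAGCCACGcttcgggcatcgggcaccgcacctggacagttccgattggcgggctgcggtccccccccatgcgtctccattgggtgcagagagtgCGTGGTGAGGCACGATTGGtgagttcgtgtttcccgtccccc

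General ER folding genes serve all secreted proteins. Of 18 tested, 1 was lower and 1 higher at an unadjusted edgeR p under 0.05, where 9.42% and 7.01% of all genes were. Their median log2 fold change was 0.06. Hspa5 (BiP) was at 3014 ± 401 CPM in controls and 3178 ± 184 CPM after phlebotomy, and Calr (calreticulin) at 887 ± 40.4 and 915 ± 74.3 CPM. Sdf2l1, a stress-induced ER protein that works with BiP, was at 21.1, 27.8 and 43.3 CPM in the controls and at 93.9, 51.0 and 86.9 CPM after phlebotomy, wholly above the controls (log2 fold change 1.33, SE 0.27, edgeR adjusted p = 0.139). Fkbp9, a relative of Fkbp10, averaged 164 ± 35.2 CPM in controls and 112 ± 18.7 CPM in the other group, with a log2 fold change of -0.55 and an adjusted p of 0.213 in edgeR. Pdia6 and Pdia4, which form disulfide bonds, had overlapping groups, with log2 fold changes of 0.35 and 0.31 (edgeR adjusted p = 0.350 and 0.443).

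The collagen chains themselves, the substrates of the pathway, centred on a log2 fold change of -0.73 (median). Of the 20, 10 were lower and 1 higher at an unadjusted edgeR p under 0.05, where 9.42% and 7.01% of all genes were. Col1a1 was at 26398, 18304 and 18056 CPM in the controls and at 4995, 16539 and 7038 CPM after phlebotomy, wholly below the controls (log2 fold change -1.14, SE 0.38, edgeR adjusted p = 0.204). Col1a2 was at 28310, 18527 and 19097 CPM in controls and at 6156, 20531 and 9210 CPM after phlebotomy, with phlebotomy 2 among the controls (log2 fold change -0.88, SE 0.38, adjusted p = 0.278 in edgeR). The fibril-forming chains Col11a2, Col24a1 and Col5a1 lay wholly below the controls, with log2 fold changes of -1.20, -1.15 and -0.88 (edgeR adjusted p = 0.160, 0.172 and 0.173), and the fibril-associated Col16a1, at -0.95 (adjusted p = 0.196), had overlapping groups. The chain that was higher, named after its values were seen, was Col14a1, at 1.87, 1.20 and 1.61 CPM in the controls and 1.74, 2.54 and 4.68 CPM after phlebotomy (log2 fold change 0.95, edgeR adjusted p = 0.263).

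Most processing genes were lower by less than the type I chains: 35 of 36 had a higher log2 fold change than Col1a1 and 34 a higher one than Col1a2. That held for nearly any gene, however, since 99.5% and 98.2% of all genes did too. Per kilobase, the sum of Col1a1 and Col1a2 was 6300, 4280 and 4288 CPM in the controls and 1257, 4172 and 1814 CPM after phlebotomy. Relative to that sum, the mean level of 35 of 36 genes was higher after phlebotomy, as was that of 99.6% of all genes, and 9 of 36 had all 3 phlebotomy libraries above every control, against 32.4%. Sparc followed type I collagen closely in controls, at 34.5%, 34.7% and 35.7% of its level, and was at 52.0%, 39.6% and 53.0% after phlebotomy. P4hb was at 8.16%, 10.3% and 9.67% in the controls and 33.4%, 11.2% and 26.0% after phlebotomy. All ratios share the same denominator, which was low in phlebotomy 1 and 4.

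**Figure D4:**
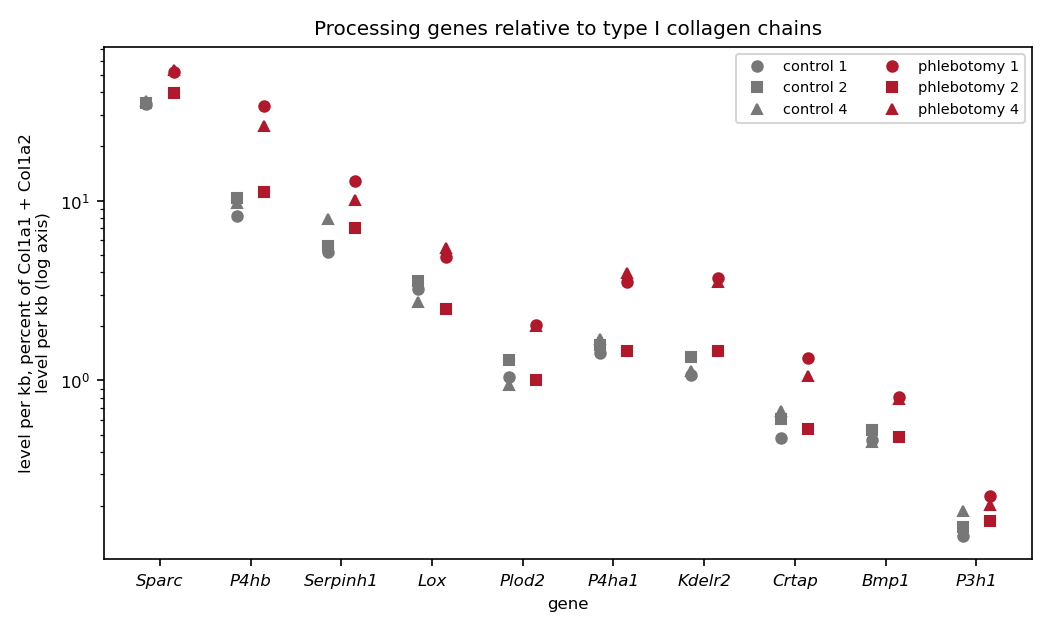
Level per kilobase of 10 processing genes as a percent of the summed level per kilobase of Col1a1 and Col1a2, on a log axis, for each control (grey) and phlebotomy (red) library. Phlebotomy 1 and 4 lie above the controls for all 10 genes shown, as 95.6% of all genes did, and phlebotomy 2 lies near the controls.

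The neighbouring lists of the pathway ranged between these examples. At an adjusted p under 0.05, DESeq2 called 3 of 20 collagen chains and 3 of the 18 tested maturation and fibril genes lower. It also called 1 traffic and 1 turnover gene lower and 1 general ER folding gene higher. Of the 36 processing genes it called 3 lower, and of all genes 1.12% lower and 0.398% higher. Such calls were thus not particular to the 36. The edgeR counts of the lists below stand beside 9.42% of all genes lower and 7.01% higher, and 15.5% lower among genes of at least 10 CPM. Of 18 tested genes of collagen maturation and fibril assembly outside the 36, 9 were lower and 0 higher at an unadjusted edgeR p under 0.05 (median log2 fold change -0.53). Itga11, a collagen receptor chain, was at 32.3 ± 1.77 CPM in controls and 18.4 ± 2.77 CPM after phlebotomy, and Thbs2, Ddr1 and Efemp2 also lay wholly below the controls, with log2 fold changes of -0.94, -0.87 and -0.72 (edgeR adjusted p = 0.172, 0.178 and 0.160). The abundant Thbs1 and Itgb1 had overlapping groups, with log2 fold changes of -0.54 and -0.22.

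Of 18 genes of COPII coats and ER to Golgi traffic, 4 were lower and 0 higher (median -0.19), where 15.5% of all genes of at least 10 CPM were lower. These were Sec24a (log2 fold change -0.75), Sec16a (-0.71), Sec31a (-0.52) and Mbtps1 (-0.44), the last a protease that cleaves ER membrane transcription factors in the Golgi. Sar1a, the most abundant of them, was at 354 ± 66.2 and 322 ± 10.5 CPM with overlapping groups. Of 14 collagen turnover genes, 5 were lower and 0 higher (median -0.12). The collagen uptake receptor Mrc2 was at 159 ± 37.1 CPM in controls and 83.8 ± 18.6 CPM after phlebotomy (log2 fold change -0.92, edgeR adjusted p = 0.139), and Mmp14, Timp1 and Timp2 had log2 fold changes of -0.64, -0.52 and -0.63. Mmp13 and Ctsb, the most abundant of that list, had log2 fold changes of 0.05 and -0.02.

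**Figure D5:**
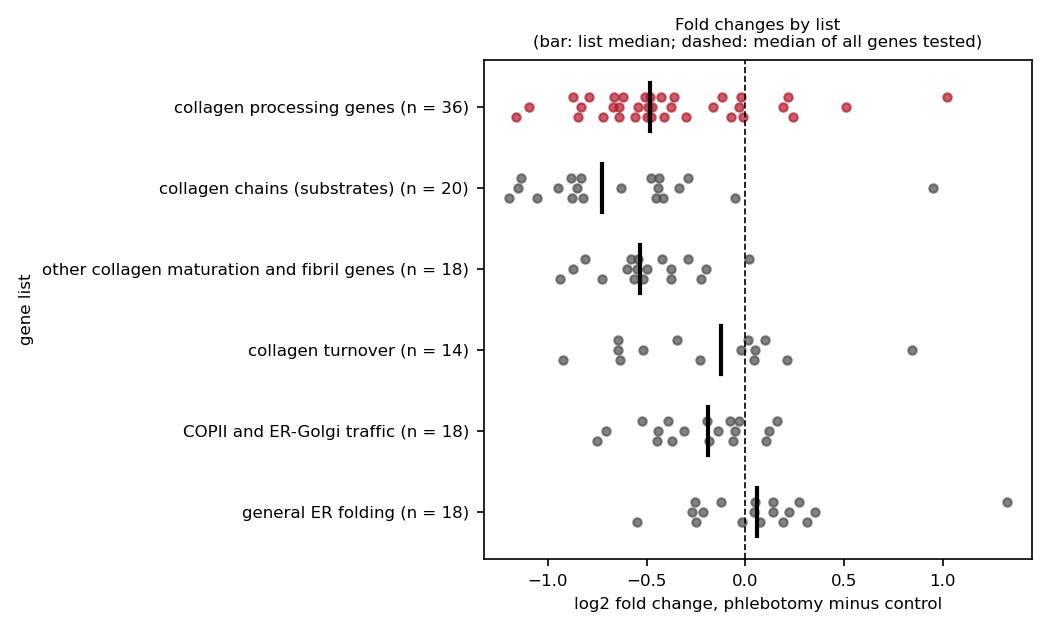
Log2 fold change, phlebotomy minus control, of each tested gene (points) in the 36 processing genes and in 5 other lists, with each list's median (bar) and the median of all genes tested (dashed). The medians run from -0.73 for collagen chains and -0.48 for the processing genes to 0.06 for general ER folding genes.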

How the data were processed

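The deposited files hold raw gene counts, the same counts after a filter, and CPM values that, per the file name, the authors scaled with TMM (a signal). The submitters' processing notes name, without roles, the builds GRCm38.p3 and mm10, the aligner STAR (2.7.3a and 2.5.2a), limma, edgeR and DESeq2. Per the labels' protocols, Nextera XT libraries, which do not mark strand, were read at 126 bp paired-end. The counting program is not given in the sources used here. Phlebotomy was read from the initial P of a column, and control, by elimination, from N; their numbers (1, 2 and 4) do not match the titles, so they were tied to groups only.

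Raw counts of 55421 gene rows were filtered (filterByExpr, minimum count 10), scaled with TMM and tested with edgeR 4.0.16 (quasi-likelihood, robust, no covariates, R 4.3.3) with Benjamini-Hochberg adjustment over all 18838 genes and a threshold of 0.05. Rows of transgene or vector names (0.00278% to 0.0284% of counts) were left out. Standard errors were approximated from the F statistic. The script was tested on simulated data. Levels are CPM from the same fit; the deposited scaled values entered only limma-trend. Exon lengths and overlaps came from GENCODE M21 (GRCm38), promoters from RefSeq. The 18 alternatives were other scalings, filters and tests (DESeq2 1.42.0, limma 3.58.1), a replicate block, a GC and length trend removed, and leaving out each library. The background of genes of at least 10 CPM and the levels per type I collagen were added after seeing the data.

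The 36 genes and all lists were chosen with earlier results of these data known. All 36 are named; values per library are given where the unadjusted edgeR p was under 0.05 or the level per kilobase was the highest of its role, and for Serpinh1 and Adamts14, which were added after their values were seen. Of each other list, up to 4 genes by smallest p and the 2 most abundant are named. Figures were drawn with matplotlib 3.10.9. The reads carry no molecular identifiers, so the floor of 3 counts covers counting error only.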

Additional observations from a re-analysis of the deposited data

Results flagged for a closer look

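The deposited rows that name transgene or vector sequences held 4288 counts in phlebotomy 2, against 380 to 640 in the controls and 441 in each of phlebotomy 1 and 4. They were singled out because they lie outside the gene comparison and above the level in the control libraries. In the other 5 libraries nearly all of these counts were on 1 row, named for a GNAS transgene, which held 372 to 619 counts there and 560 in phlebotomy 2. The excess of phlebotomy 2 lay mainly on Neo (2288 counts), EGFP (920), DsRed (403) and Venus (75), rows that held 0 to 12 counts in each of the others, and it goes against the wild-type label. Phlebotomy 2 is also the phlebotomy library whose collagen processing genes lay closest to the controls. Whether these counts have any part in the values of that library was not tested.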

How the results depend on the processing

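P4ha2, Crtap, Creb3l1, Lox and Loxl4 kept an unadjusted p under 0.05, in the lower direction, in all 18 alternatives. The share of all genes that did so was not computed. The alternatives draw on the same 6 libraries, so keeping a call in all of them is not independent support. The number of all genes past an adjusted p of 0.05 was 3 in edgeR, 577 without a filter on low counts, 20 on the rows of the deposited filtered table, 285 in DESeq2, 0 in limma-voom and 0 to 963 when 1 library was left out. Members past it numbered 0 in edgeR, 9 without a filter (0.884% of all genes lower), 3 in DESeq2 and 0 to 11 when 1 library was left out. Members lower at an unadjusted p numbered 17, but 9 with library size only (4.42% of all genes), 9 with the GC and length trend removed (6.48%), and 5 to 23 when 1 library was left out: 9 without control 1 (5.73%), 5 without phlebotomy 1 (4.14%), 11 without phlebotomy 4 (6.24%) and 23 without phlebotomy 2 (14.5%). Members higher numbered 0, and 1 in limma-voom (6.27%). The median log2 fold change of -0.48 ran from -0.69 without phlebotomy 2 to -0.31 without phlebotomy 1. Library size alone moved the median of all genes from -0.0028 to 0.138. Same-numbered libraries did not deviate together (r = -0.11, -0.108 and -0.0616). With 3 libraries a group such correlations cannot exclude a pairing, and the labels state none. With the number as a replicate block the median was -0.49 and 13 members were lower (7.41%).

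The log2 fold changes that changed sign belonged to genes with no call. P4hb became 0.00050 with DESeq2 size factors, 0.00053 in DESeq2, 0.0731 with upper-quartile scaling, 0.135 with library size only and 0.0543 with the trend removed, and ran from -0.105 to 0.0697 with 1 library left out. Under the last 3 of these scalings Plod1 became 0.0498, 0.110 and 0.106 and Colgalt1 0.0119, 0.0695 and 0.0773. Kdelr2 became 0.0623 with upper-quartile scaling and 0.127 with library size only, and Fkbp14 0.0329 with the latter. With 1 library left out, Plod1 ran from -0.198 to 0.0890, Kdelr2 from -0.163 to 0.133, Fkbp14 from -0.290 to 0.136, Adamts3 from -0.428 to 0.0161, P4ha3 from -0.0164 to 0.849 and Pcolce2 from -0.268 to 0.574. Pcolce2 became -0.0252 and -0.0012 in limma-trend with pseudocounts of 0.5 and 1. The causes were not tested. Depth limits Tll1, P4ha3, Colgalt2 and Pcolce2, which rest on few counts.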
